A study of Caenorhabditis elegans with 6 samples.

Results

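The genes described here encode the mitochondrial respiratory chain, ATP synthase and the citric acid cycle of the nematode Caenorhabditis elegans. They were chosen by symbol: genes whose names begin with nuo-, nduf-, sdha-, sdhb-, sdhd-, ucr-, cox-, atp-, asb- or asg-, and 22 further genes by name, among them cco-1, cco-2, gas-1, isp-1, mev-1 and cts-1. Of 65 such genes in the RefSeq annotation, 31 had a row under such a symbol in the table of H3K18ac peaks. These rows held 40 of its 17207 peaks, among 11891 genes in all. For H3K27ac, 29 of the 65 genes had such a row, with 39 of 17763 peaks and among 12551 genes. Both tables listed 25 of these genes and at least 1 of the tables listed 35. The cox- prefix brings in assembly factors of cytochrome c oxidase (cox-10, cox-11, cox-14 to cox-19), which are kept apart from the subunits, and cco-1, the RNAi target, is given apart from all counts and medians.

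The respiratory chain passes electrons from NADH through complex I, or from succinate through complex II, to ubiquinone and on through complex III and cytochrome c to oxygen at complex IV. The proton gradient that complexes I, III and IV build drives complex V, the ATP synthase, while the citric acid cycle supplies NADH and succinate. In worms, partial loss of several of these subunits lengthens life, and RNAi against cco-1 is a standard way to stress mitochondria and to induce the mitochondrial unfolded protein response.

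Acetylation of histone H3 at lysine 18 (H3K18ac) or lysine 27 (H3K27ac), marks found at active promoters and enhancers, was measured by chromatin immunoprecipitation and sequencing. Wild-type worms of strain N2, which carried a GFP reporter of hsp-6 according to the series design only, were grown at 20 °C on Escherichia coli HT115 with an empty RNAi vector, or on such bacteria mixed with bacteria carrying cco-1 RNAi, which made up 50% of the food. RNAi ran from the egg to the L4 or young adult stage, when whole animals were fixed. Each mark in each condition was 1 library of 6 in all, and the 2 inputs were not analysed here.

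With 1 library per group, no difference could be checked against replicates and no test was run. Values are CPM, counts per 1e+06 counts in nuclear peaks of the same library, with totals of 8293828 and 8948860 counts for H3K18ac (empty vector and cco-1 RNAi) and of 11556404 and 11593321 counts for H3K27ac. A ratio is cco-1 RNAi over empty vector, and its exact (Clopper-Pearson) 95% interval covers counting error only. A gene is called higher or lower when its peak differs by 1.5-fold or more, a log2 ratio of 0.58. The median log2 ratio over all peaks was -0.03 for H3K18ac and -0.19 for H3K27ac. In whole animals, fewer cells of a type and less acetylation per cell cannot be told apart.

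Peaks over cco-1, which encodes subunit Vb of cytochrome c oxidase, had higher ratios than those of any other gene of the chain. The H3K18ac peak over the gene (WBGene00000371, chromosome I) held 375 CPM with empty vector and 3120 CPM with cco-1 RNAi. The H3K27ac peak held 878 and 2765 CPM. The neighbouring peaks had smaller ratios. The H3K18ac peaks nearest to it, 773 bp away on one side and 639 bp away on the other, had folds of 0.940 (0.820 to 1.077) and 0.945 (0.749 to 1.193). The nearest H3K27ac peaks, 11629 and 15773 bp away, had folds of 1.39 (1.35 to 1.44) and 1.08 (0.87 to 1.34). The first is the peak over cox-7C, and the H3K18ac peak there, 13718 bp away, had a fold of 1.27 (1.2 to 1.34). The RNAi construct carries cco-1 sequence, and whether reads from feeding plasmid add to these counts was not tested.

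Apart from cco-1, acetylation at the respiratory chain and citric acid cycle genes was modestly higher in worms on cco-1 RNAi, and at no gene was it lower by 1.5-fold. A gene was represented by the strongest peak, by mean CPM of the conditions, that the authors had assigned to it. For H3K18ac, 3 of 30 genes were higher (10%, against 8.04% of all genes) and 0 were lower (against 13.1%). The 3 were atp-2, cco-2 and nduf-7, and 23 of the 30 genes had a ratio above 1 (76.7%, against 47.0% of all genes). For H3K27ac, 5 of 28 genes were higher (17.9%, against 8.72% of all genes) and 0 were lower (against 21.9%). These were cco-2, asg-2, asb-2, nuo-5 and nduf-7, and 19 of the 28 had a ratio above 1 (67.9%, against 37.6% of all genes). The share called higher for H3K18ac was near that of all genes, and the share called lower was below it in both marks. Most of these genes have strong peaks, and over all genes strong peaks were less often lower, as given below with peak strength.

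The median log2 ratio was 0.22 for H3K18ac, beside -0.04 over all genes, and 0.20 for H3K27ac, beside -0.17 over all genes. Counting error was small against these differences for strong peaks: the interval lay wholly above 1 at 19 genes and wholly below 1 at 1 gene for H3K18ac, and at 15 and 7 genes for H3K27ac. Over all genes the like numbers were 3411 and 3958 of 11891 for H3K18ac, and 3291 and 5940 of 12551 for H3K27ac. The interval cleared 1.5-fold itself at 0 genes for H3K18ac and at 4 genes for H3K27ac (cco-2, asg-2, asb-2 and nuo-5). Over all genes it did so at 341 and 630. The number called depended on the scaling for H3K27ac. With its ratios centred on the median of all peaks, 9 of 28 genes were higher, with cyc-1, nuo-3, sucg-1 and ucr-2.1 added, and 0 were lower, against 15.2% and 13.5% of all genes. With TMM scaling 8 were higher, against 14.5%, and 0 lower, against 14.1%. Taken as a difference from the median of all genes, which a scaling does not move, the genes' medians were 0.25 for H3K18ac and 0.37 for H3K27ac.

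**Figure D1:**
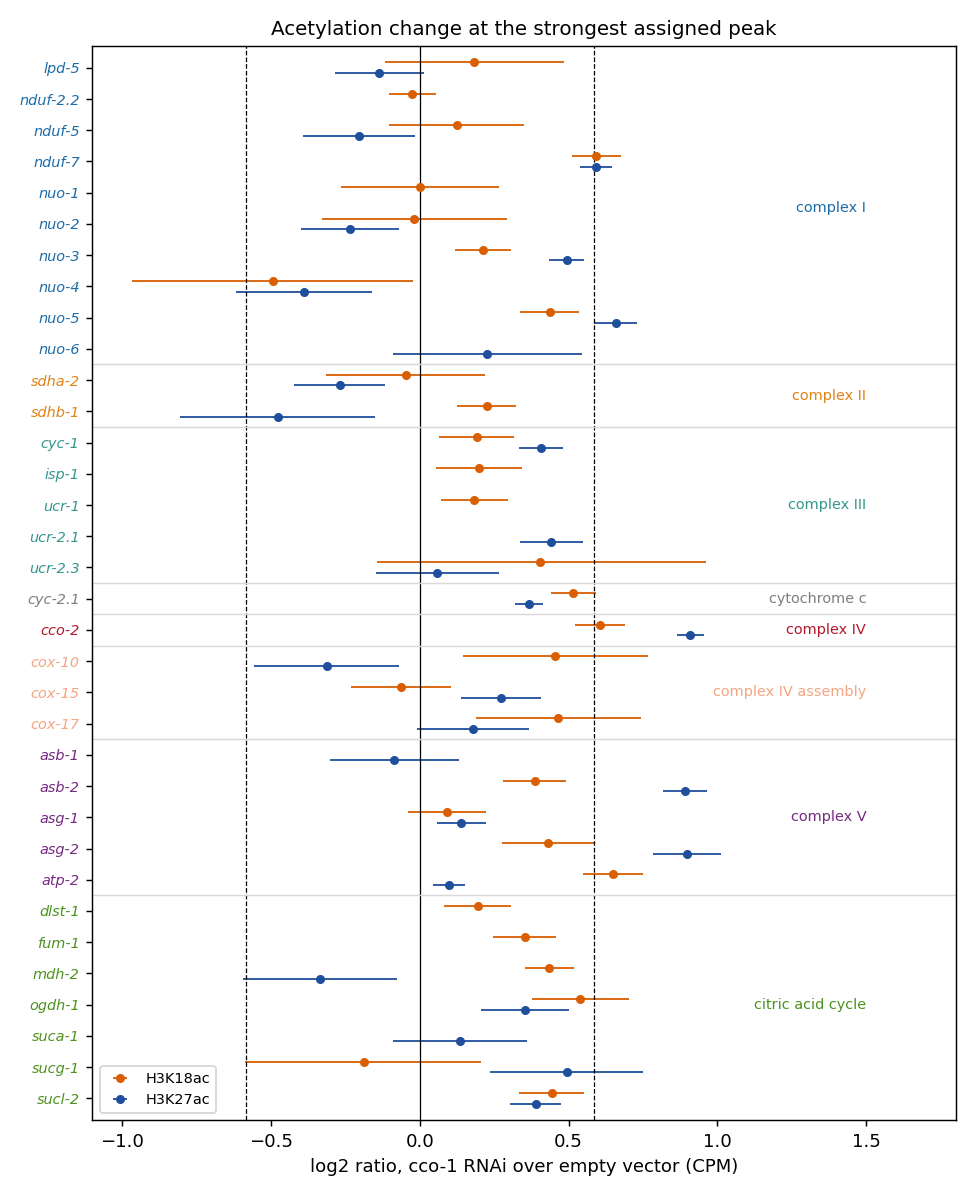
Log2 ratio (x axis, CPM with cco-1 RNAi over CPM with empty vector) at the strongest assigned peak of each gene, by complex, with cco-1 left out. Points are 1 library pair, bars are 95% counting intervals and dashed lines mark 1.5-fold; no point lies beyond the lower dashed line, and cco-2, asg-2 and asb-2 lie furthest to the right, near 0.9 for H3K27ac.

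The authors' assignment gave each peak to a nearest feature. A symbol in it can be that of a neighbour or an older name of the same gene. Only cco-1 and cco-2 were matched across names. Many chain genes had a peak over them that was listed under another symbol. To cover these, each gene was also represented by the strongest peak overlapping its RefSeq span (WBcel235, the assembly of build ce11) by at least 1 bp, a choice made after the tables had been seen. This covered 50 of the 65 genes for H3K18ac and 55 for H3K27ac, 48 of them in both. Of these, 23 and 31 were reached through a peak listed under another symbol. The peak also overlapped a further protein-coding gene at 26 and 31 genes, where the mark cannot be given to either gene. Genes at chromosome X beyond 7.89 Mb (7 genes) or 12.9 Mb (4 genes) were not analysed here, among them gas-1, a core subunit of complex I, idhb-1, sucl-1 and ucr-2.2 in both marks. A further 8 and 6 genes had no overlapping peak: idhg-2, nduf-6, cox-11 and cox-17 in either mark, nuo-6, asb-1, cox-14 and cox-18 for H3K18ac, and nduf-2.2 and ucr-11 for H3K27ac.

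On this wider basis 3 of 49 genes were higher for H3K18ac (6.12%, against 7.19% of protein-coding genes with an overlapping peak) and 0 lower (against 11.4%). For H3K27ac, 8 of 54 were higher (14.8%, against 9.42%) and 0 lower (against 18.7%): cco-2, asg-2, asb-2, cox-6C, dlst-1, atp-5, nduf-7 and cox-4. Among them, the peaks at dlst-1 and atp-5 also overlapped a further coding gene. The median log2 ratios were 0.23 for H3K18ac and 0.26 for H3K27ac, beside -0.01 and -0.09 over all protein-coding genes. The ratio was above 1 at 39 of 49 and 42 of 54 genes (79.6% and 77.8%). Over all protein-coding genes these shares were 49.5% and 42.7%, which also stand beside the counts by complex below. Genes reached through a peak listed under another symbol had medians of 0.26 and 0.24. Of 56 values, a value being 1 gene in 1 mark, that exist on both bases, 10 came from different peaks and 7 of these lay on opposite sides of 1. For H3K27ac these were mdh-2, sdhb-1, suca-1, nuo-4 and nduf-5, and for H3K18ac nuo-5 and nuo-1. At mdh-2 and sdhb-1 the assigned H3K27ac peaks were weak, 24.6 and 16.4 CPM with empty vector, with folds of 0.79 (0.66 to 0.95) and 0.72 (0.57 to 0.90), while the overlapping peaks, given with their complexes, were stronger and above 1. At nuo-5 the assigned peak lies outside the gene, and the strongest peaks over the gene had folds of 0.90 for H3K18ac and 1.03 for H3K27ac.

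**Figure D2:**
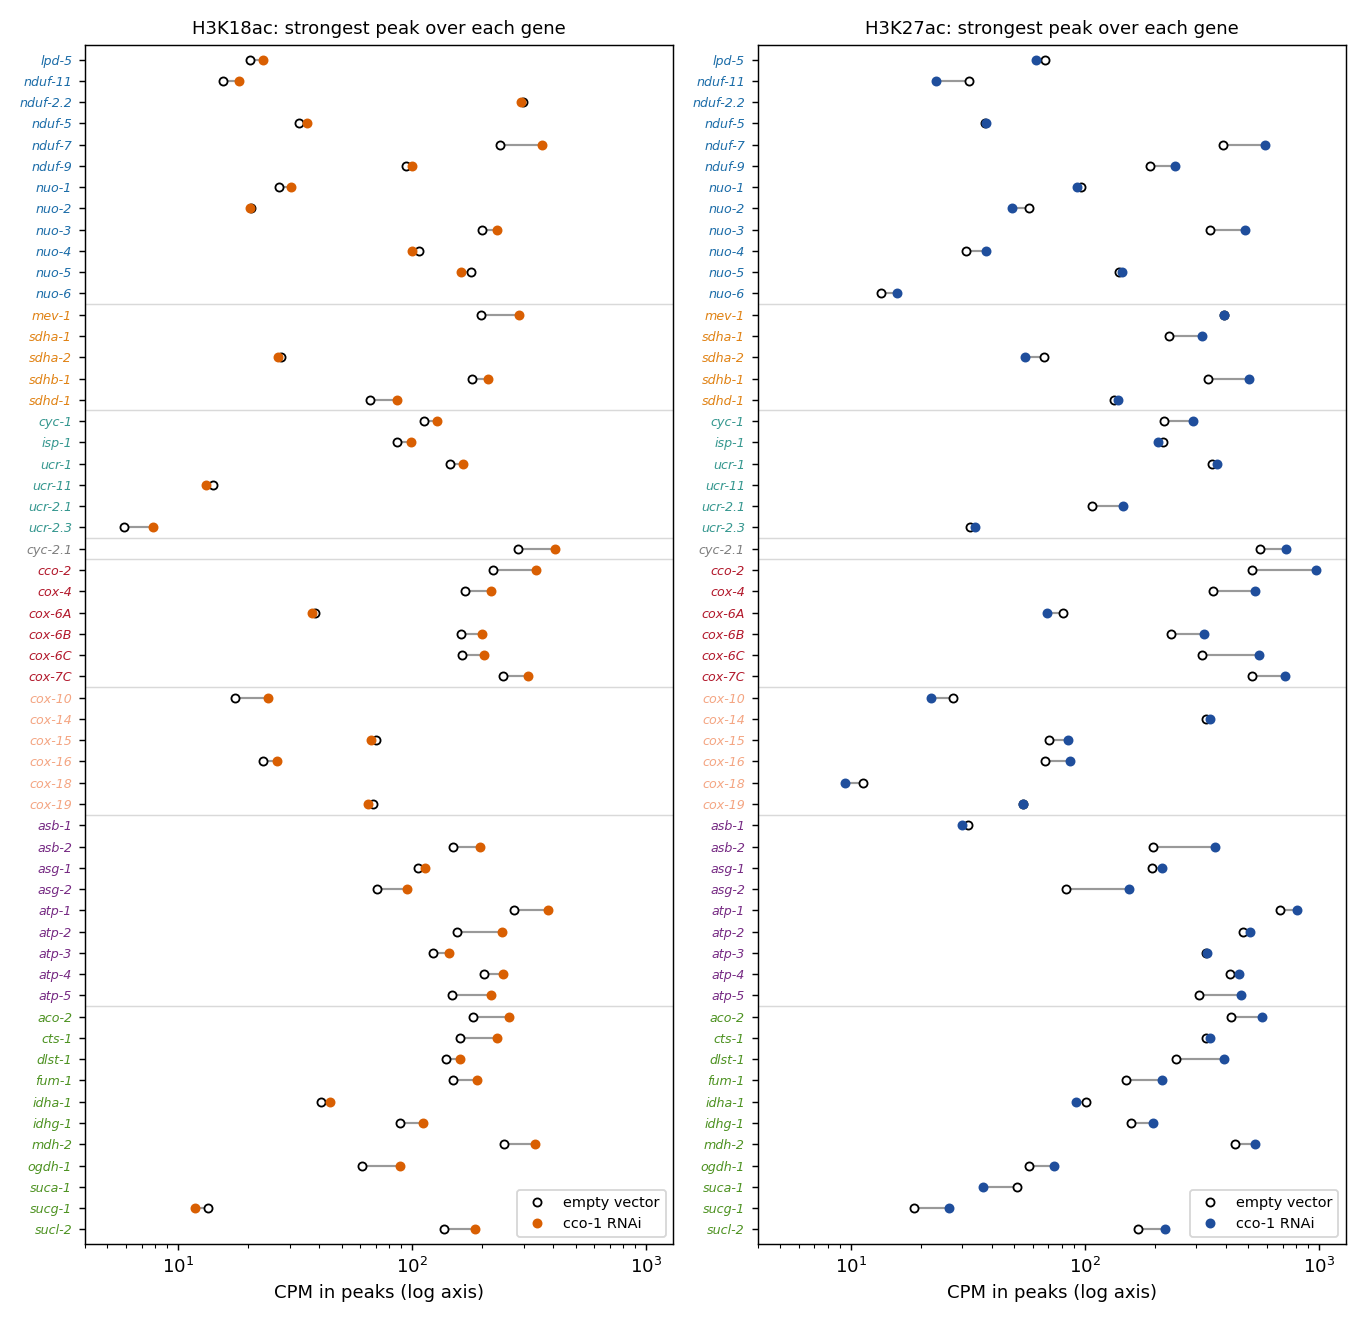
Level of H3K18ac (left) and H3K27ac (right) in CPM (log x axis) at the strongest peak over each gene, with empty vector as open circles and cco-1 RNAi as filled circles, grouped by complex, 1 library each, cco-1 left out. Peaks differ in width, so levels are to be compared within a gene; most filled circles lie to the right of their open circle, and the complex IV subunits show it in both panels except cox-6A.

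Complex I, NADH dehydrogenase, had a few genes with higher ratios and most near 1. Its medians on the wider basis were 0.11 for H3K18ac and 0.05 for H3K27ac over 11 genes each, and by assigned peak 0.12 over 9 genes and 0.05 over 8 genes. Both marks were higher at nduf-7, an iron-sulphur core subunit. Its start peak (chromosome I, 9110309 to 9112056) went from 238 to 359 CPM for H3K18ac, 1.51-fold (1.43 to 1.60), and from 391 to 589 CPM for H3K27ac, 1.51-fold (1.45 to 1.56). Both calls sit at the threshold, and both intervals reach below it.

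At nuo-5, another iron-sulphur core subunit, the strongest assigned peak lay upstream of the gene (chromosome V, 2697142 to 2698123). It went from 169 to 229 CPM for H3K18ac, 1.35-fold (1.26 to 1.45), and from 220 to 346 CPM for H3K27ac, 1.58-fold (1.5 to 1.66). At nuo-3, an accessory subunit, H3K18ac went from 200 to 231 CPM, 1.16-fold, and H3K27ac from 344 to 484 CPM, 1.41-fold (1.35 to 1.47). By assigned peak these were the 3 highest H3K27ac folds of the complex. On the wider basis nduf-9, an accessory subunit, also had a strong H3K27ac peak, listed under Y53G8AL.2. It went from 189.6 to 243 CPM, 1.28-fold (1.21 to 1.36), while H3K18ac there had a fold of 1.07 (0.97 to 1.18).

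Several other complex I genes had smaller ratios. The H3K18ac peak over the start of nduf-2.2, a core subunit, held 297 CPM with empty vector and 292 CPM with cco-1 RNAi. At nuo-1, which encodes the flavoprotein that binds NADH, the assigned H3K18ac peak held 27.5 CPM in each condition, and the H3K27ac peak over the gene 96.8 and 92.8 CPM. The H3K27ac peak over the start of nuo-6, whose point mutation lengthens life in worms, was weak, at 13.4 and 15.7 CPM, 1.17-fold (0.94 to 1.46). At nuo-4, an accessory subunit, weak peaks at and upstream of the start went from 10.9 to 7.71 CPM for H3K18ac, 0.71-fold (0.51 to 0.98), and from 31.8 to 24.2 CPM for H3K27ac, 0.76-fold (0.65 to 0.89). The strongest peaks over the gene, assigned to ogt-1, had folds of 0.94 and 1.23. The assigned folds were the lowest of the complex by strongest assigned peak, and neither reached 1.5-fold lower. On the wider basis the lowest H3K27ac fold of the complex was at nduf-11, in a peak assigned to lgc-20. It went from 32.1 to 23.1 CPM, 0.72-fold (0.61 to 0.84), while H3K18ac there had a fold of 1.17 (0.92 to 1.49). At nuo-2 the folds were 0.99 (0.80 to 1.22) for H3K18ac and 0.85 (0.76 to 0.95) for H3K27ac.

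Complex II, succinate dehydrogenase, which belongs to both the chain and the cycle, had medians of 0.31 over 4 genes for H3K18ac and 0.05 over 5 genes for H3K27ac on the wider basis. By assigned peak, sdha-2 and sdhb-1 alone had medians of 0.09 and -0.37, so the sign of the H3K27ac median differed between the bases. The marks differed at mev-1, the cytochrome b subunit in which a mutation shortens life. The peaks there, assigned to its neighbour jmjd-4 and overlapping 2 other coding genes, went from 197 to 286 CPM for H3K18ac, 1.45-fold (1.37 to 1.55), and from 391.9 to 392.4 CPM for H3K27ac, 1.00-fold (0.96 to 1.04). The reverse held at sdhb-1, the iron-sulphur subunit, where H3K18ac over the start went from 181 to 211 CPM, 1.17-fold (1.09 to 1.25), and the H3K27ac peak over it, assigned to F42A8.3, from 337 to 501 CPM, 1.49-fold (1.43 to 1.55). Among the flavoprotein genes, sdha-2 had folds of 0.97 for H3K18ac and 0.83 (0.75 to 0.92) for H3K27ac, while sdha-1 had an H3K27ac peak that went from 230 to 318 CPM, 1.38-fold (1.31 to 1.45). The membrane anchor gene sdhd-1 had folds of 1.31 and 1.03.

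Complex III, cytochrome bc1, had medians of 0.19 for H3K18ac and 0.07 for H3K27ac over 5 genes each on the wider basis. By assigned peak the medians were 0.20 over 4 genes and 0.41 over 3 genes, since isp-1 and ucr-1 have no assigned H3K27ac peak. At isp-1, the Rieske iron-sulphur protein whose mutation lengthens life, H3K18ac over the start went from 86.6 to 99.3 CPM, 1.15-fold (1.04 to 1.27), and H3K27ac over the gene from 217 to 206 CPM, 0.95-fold (0.90 to 1.01). At cyc-1, cytochrome c1, H3K18ac went from 112 to 128 CPM, 1.14-fold, and H3K27ac from 218 to 289 CPM, 1.33-fold (1.26 to 1.4). At ucr-1, a core protein, H3K18ac went from 145 to 165 CPM, 1.14-fold, and H3K27ac from 351 to 368 CPM, 1.05-fold. The core protein gene ucr-2.1 had an H3K27ac fold of 1.36 over its start. At ucr-2.3, with weak peaks, the folds were 1.32 (0.91 to 1.95) for H3K18ac and 1.04 for H3K27ac. Cytochrome c itself, encoded by cyc-2.1, went from 285 to 407 CPM for H3K18ac, 1.43-fold (1.36 to 1.51), and from 560 to 723 CPM for H3K27ac, 1.29-fold (1.25 to 1.33).

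Complex IV, cytochrome c oxidase, the complex that cco-1 belongs to, had the highest H3K27ac median of all groups of more than 1 gene on the wider basis, 0.53 over 6 subunit genes, with 3 of them higher, and an H3K18ac median of 0.33 with 1 higher. The gene that stood out was cco-2, subunit Va. The peak over its start (WBGene00012553, chromosome III, 12905148 to 12906270 for H3K18ac and 12905094 to 12906373 for H3K27ac) held 1842 counts with empty vector and 3024 with cco-1 RNAi for H3K18ac, or 222 and 338 CPM. That is 1.52-fold (1.44 to 1.61). For H3K27ac it held 6006 and 11310 counts, or 520 and 976 CPM, 1.88-fold (1.82 to 1.94), a fold that the intervals at asg-2 and asb-2 also reach. The cco-2 gene is on another chromosome than cco-1 and is not the target of the RNAi.

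The other subunit genes were listed under other symbols in both tables, which can be neighbours or older names of the same genes. H3K27ac at cox-6C went from 316 to 557 CPM, 1.76-fold (1.69 to 1.84), and H3K18ac from 163 to 202 CPM, 1.24-fold (1.15 to 1.33). At cox-4 the folds were 1.5 (1.45 to 1.57) for H3K27ac, from 354 to 532 CPM, and 1.29 for H3K18ac. At cox-7C, whose peaks lie on chromosome I near cco-1 and overlap other genes, H3K18ac went from 246 to 312 CPM, 1.27-fold, and H3K27ac from 517 to 720 CPM, 1.39-fold. Folds at cox-6B, whose peaks also overlap other coding genes, were 1.23 and 1.38. The exception was cox-6A, with folds of 0.97 (0.83 to 1.13) for H3K18ac and 0.85 (0.78 to 0.94) for H3K27ac, so that 5 of 6 subunit genes were above 1 in each mark.

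The assembly factors of complex IV had medians of 0.07 for H3K18ac over 4 genes and 0.03 for H3K27ac over 6 genes on the wider basis, and none was past 1.5-fold. By assigned peak the medians were 0.46 and 0.18 over 3 genes each (cox-10, cox-15 and cox-17). At cox-10, a haem farnesyltransferase, weak peaks had folds of 1.37 (1.11 to 1.7) for H3K18ac and 0.80 (0.68 to 0.95) for H3K27ac. At cox-16 the folds were 1.15 (0.95 to 1.4) and 1.29 (1.17 to 1.41). At cox-15, which makes haem a, H3K18ac went from 69.9 to 66.9 CPM and H3K27ac from 70.2 to 84.8 CPM, 0.96-fold and 1.21-fold. At cox-19, a copper delivery factor, the folds were 0.95 and 1.01. The H3K27ac peak over cox-14 is the one that also covers cts-1, at 1.04-fold. A peak upstream of cox-17, the copper chaperone, had folds of 1.38 (1.14 to 1.67) for H3K18ac and 1.13 (0.99 to 1.29) for H3K27ac.

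Complex V, ATP synthase, had a ratio above 1 at 8 of 8 genes for H3K18ac and at 8 of 9 for H3K27ac on the wider basis, with medians of 0.41 and 0.14. The peaks at atp-1, atp-3, atp-4 and atp-5 were listed under mcrs-1, F27C1.2, T05H4.11 and lmtr-3. They also overlapped further coding genes, as did those at asg-1, so the mark there cannot be given to either gene. The genes past 1.5-fold were not the same in the marks. At atp-2, the catalytic beta subunit, H3K18ac over the start (chromosome III, 5227939 to 5229846) went from 155 to 243 CPM, 1.57-fold (1.46 to 1.68), with an interval that reaches below 1.5-fold. H3K27ac there went from 472 to 506 CPM, 1.07-fold (1.03 to 1.11). At atp-1, the alpha subunit, H3K18ac went from 273 to 380 CPM, 1.39-fold (1.32 to 1.47), and H3K27ac from 683 to 805 CPM, 1.18-fold (1.14 to 1.22).

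H3K27ac was the mark with the higher fold at asb-2 and asg-2, which encode subunits b and g of the stalk and membrane part. H3K27ac over the start of asb-2 (chromosome X, 4469392 to 4470291) went from 195 to 362 CPM, 1.85-fold (1.76 to 1.95), and H3K18ac from 150 to 196 CPM, 1.31-fold (1.21 to 1.41). H3K27ac over the start of asg-2 (chromosome X, 6841019 to 6841726) went from 83.1 to 155 CPM, 1.86-fold (1.72 to 2.02), and H3K18ac from 70.5 to 95.1 CPM, 1.35-fold (1.21 to 1.5). Both genes have a paralogue, and the paralogues stayed near 1: asb-1, the form used in the germline, had an H3K27ac fold of 0.94 (0.81 to 1.09) with no H3K18ac peak, and asg-1 had folds of 1.07 (0.97 to 1.17) for H3K18ac and 1.1 (1.04 to 1.17) for H3K27ac. Of the smaller atp genes, atp-5 had folds of 1.48 (1.37 to 1.59) for H3K18ac and 1.52 (1.46 to 1.59) for H3K27ac, from 307 to 466 CPM in the second, while atp-3 and atp-4 had 1.17 and 1.2 for H3K18ac and 1.01 and 1.09 for H3K27ac.

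The citric acid cycle genes had medians of 0.39 for H3K18ac over 10 genes and 0.35 for H3K27ac over 11 genes on the wider basis. The ratio was above 1 at 9 of 10 and 9 of 11 genes, with 0 and 1 past 1.5-fold. Citrate synthase, cts-1, which starts the cycle, went from 160 to 231 CPM for H3K18ac, 1.45-fold (1.35 to 1.55), and from 329 to 342 CPM for H3K27ac, 1.04-fold (0.99 to 1.09). Aconitase, aco-2, had folds of 1.42 (1.33 to 1.51), from 183 to 259 CPM, and 1.37 (1.32 to 1.42), from 419.5 to 574 CPM. The aco-2 peaks were assigned to eef-1B.1, and the cts-1 peaks to rde-4 for H3K18ac and T20G5.14 for H3K27ac. Each of these peaks also overlapped a further coding gene, so the mark cannot be given to either gene. Genes of isocitrate dehydrogenase had folds of 1.09 and 0.91 at idha-1 and 1.25 and 1.24 at idhg-1, for H3K18ac and H3K27ac. Their peaks were assigned to lmd-1 and mlcd-1.

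Oxoglutarate dehydrogenase, the next enzyme, included the gene of the cycle past 1.5-fold. H3K27ac over dlst-1, its succinyltransferase subunit, went from 246 to 394 CPM, 1.60-fold (1.53 to 1.68), in a peak assigned to W02F12.11, and H3K18ac over the start from 140 to 160 CPM, 1.14-fold (1.06 to 1.24). The dehydrogenase subunit, ogdh-1, had folds of 1.45 (1.3 to 1.63) and 1.28 (1.15 to 1.42) at its peak nearest the start. Succinyl-CoA ligase genes diverged: sucl-2 had folds of 1.36 and 1.31, sucg-1 had 0.88 (0.67 to 1.15) and 1.41 (1.18 to 1.68) at weak peaks, and the stronger H3K27ac peak over suca-1 went from 51.1 to 36.7 CPM, 0.72-fold (0.63 to 0.82), beside 1.1-fold (0.94 to 1.28) at its assigned peak. Fumarase, fum-1, had folds of 1.28 and 1.42. At mitochondrial malate dehydrogenase, mdh-2, which closes the cycle, H3K18ac went from 247 to 334 CPM, 1.35-fold (1.28 to 1.43), and H3K27ac from 439 to 532 CPM, 1.21-fold (1.17 to 1.26). That H3K27ac peak was assigned to F20H11.4, and the peaks of both marks overlapped a further coding gene.

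The marks were then compared at the 44 genes, apart from cco-1, whose strongest peaks of the marks overlapped each other. Both ratios were above 1 at 33 genes and both below 1 at 3, with 4 genes on each of the mixed sides, beside 2339 and 2768 of 7199 protein-coding genes for the joint directions. Past 1.5-fold in both marks were cco-2 and nduf-7, 2 of the 44 genes (against 3.01% of protein-coding genes). The H3K27ac fold was at least 1.5 times the H3K18ac fold at 1 of the 44 genes, sucg-1 (against 6.46% of protein-coding genes), and the reverse held at 1 gene, nduf-11 (against 10%). Smaller differences between the marks were still beyond counting error at many genes: the interval of the difference lay above 0 at 16 genes and below 0 at 12. The like numbers over all protein-coding genes are not given here, so these cannot be read as particular to the 44 genes. The widest differences at strong peaks were at atp-2, where the H3K27ac log2 ratio was below that of H3K18ac (difference -0.55, -0.66 to -0.44), at mev-1 (-0.54) and cts-1 (-0.48). On the other side lay cox-6C (0.51), asb-2 (0.50, 0.38 to 0.63), dlst-1 (0.49) and asg-2 (0.47).

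**Figure D3:**
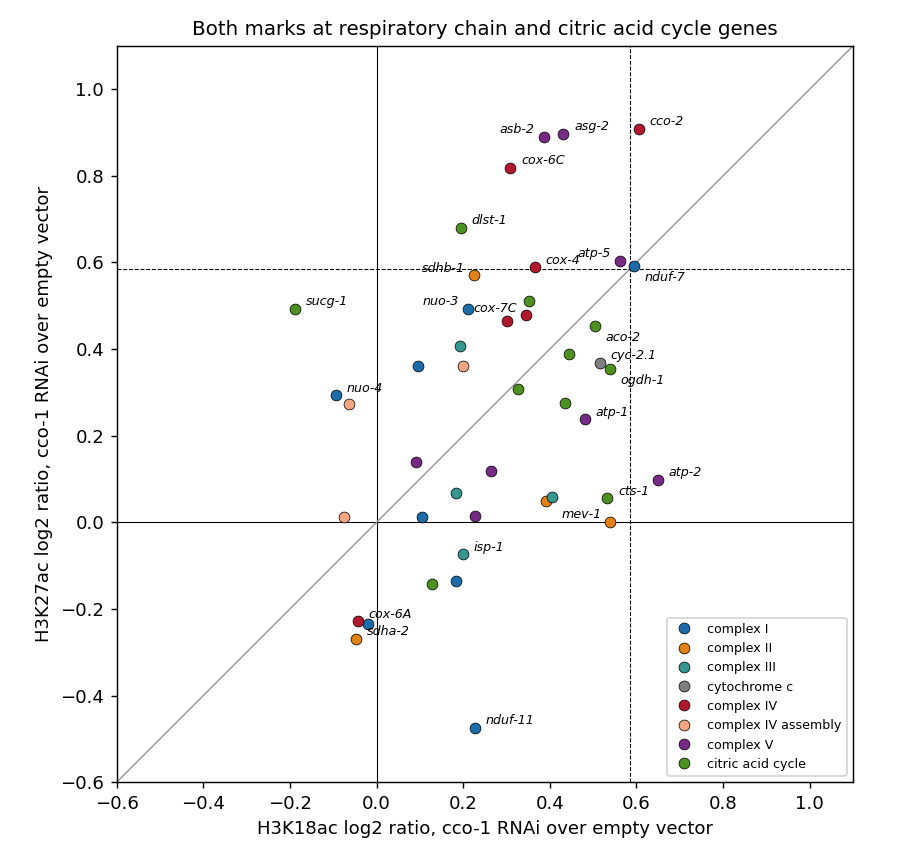
Log2 ratio of H3K27ac (y axis) against that of H3K18ac (x axis), cco-1 RNAi over empty vector, at 44 genes whose peaks of the marks overlap, coloured by complex, 1 library pair per mark and cco-1 left out. Dashed lines mark 1.5-fold and the diagonal equal ratios: 33 points lie in the upper right part, with atp-2, mev-1 and cts-1 far below the diagonal and asb-2, asg-2, cox-6C and cco-2 above it.

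Peaks of 1 gene could differ in both size and direction. At nuo-5 the upstream peak had the folds given above, while the H3K18ac peaks inside the gene went from 55.3 to 43.7 CPM, 0.79-fold (0.69 to 0.91), and from 199 to 141 CPM, 0.71-fold (0.66 to 0.76). The H3K27ac peaks at the same places had folds of 1.08 and 1.03. At ogdh-1 a second peak further inside the gene had folds of 0.85 (0.73 to 0.99) for H3K18ac and 0.70 (0.62 to 0.79) for H3K27ac, against 1.45 and 1.28 near the start. At cox-10 the H3K27ac peaks had folds of 1.32 (1.11 to 1.56) and, further from the start, 0.80 (0.68 to 0.95).

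At cco-2 the weak H3K27ac peaks upstream of the gene went from 23.2 to 12.5 CPM, 0.54-fold (0.44 to 0.66), and from 11.7 to 5.78 CPM, 0.49-fold (0.36 to 0.67), the opposite of the start peak. Peaks also fell on both sides of 1.5-fold at dlst-1, where a weak H3K18ac peak inside the gene had a fold of 1.60 (1.36 to 1.89), at asb-2, where an inner H3K27ac peak had 1.39 (1.23 to 1.57), and at nduf-7, where an upstream H3K27ac peak had 1.05 (0.93 to 1.19). Over all the genes of the chain and cycle with more than 1 assigned peak, cco-1 left out, the peak at or nearest to the start was compared with the rest. It had the highest fold at 8 of 8 genes for H3K27ac and at 4 of 8 for H3K18ac. The like share over all genes is not given here. For H3K27ac that peak was often also the stronger one, as at cco-2, nduf-7 and asb-2, though not at cox-10 and nduf-5. Place and strength were not told apart. The exceptions for H3K18ac were dlst-1, nuo-2 (0.85 at the start and 0.99 inside), and nduf-5 and nduf-7, where the folds differed by less than their intervals.

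**Figure D4:**
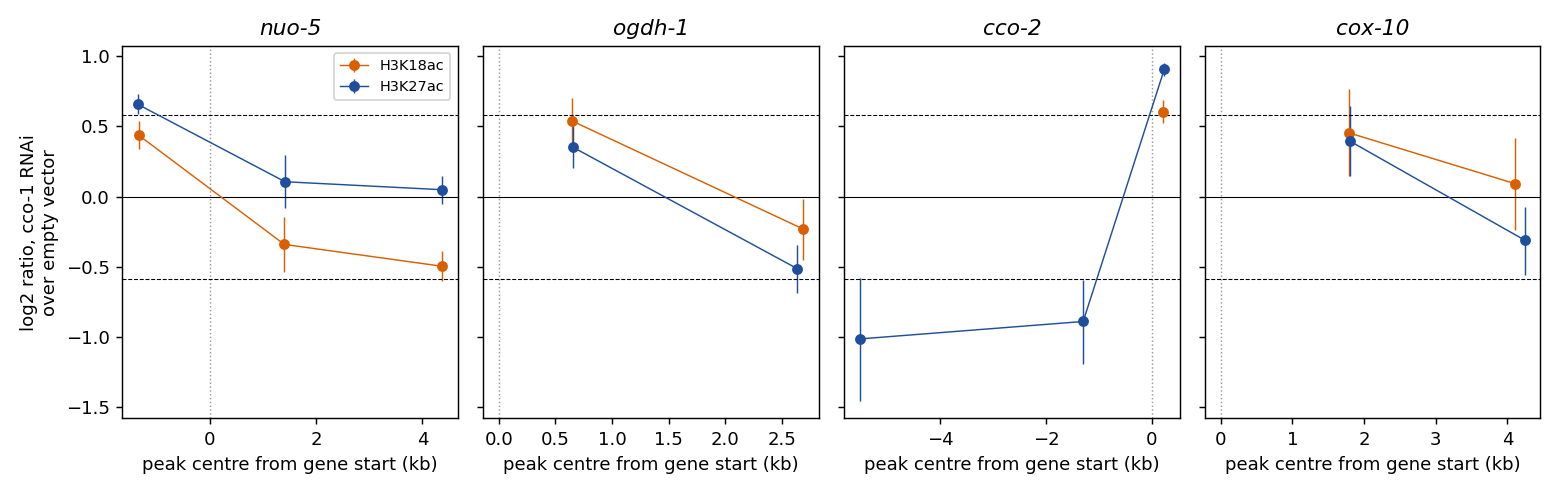
Log2 ratio (y axis, CPM with cco-1 RNAi over CPM with empty vector) at every assigned peak of nuo-5, ogdh-1, cco-2 and cox-10 against the distance of the peak centre from the gene start in kb (x axis), with 95% counting intervals, 1 library pair per mark. Dashed lines mark 1.5-fold; the peak at or nearest to the start has the highest ratio in each panel, and the cco-2 peaks upstream lie below the lower line.

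These genes carry strong peaks, and over all peaks the ratio itself went with peak strength. With empty vector their assigned peaks stood at a median percentile of 82.5 for H3K18ac and 72.5 for H3K27ac among genes with a peak, or 63.3 and 80.2 per kb of peak. Per kb of peak, the highest assigned levels with empty vector were those of sdhb-1 (276 CPM per kb) and cco-2 (198) for H3K18ac, and of cco-2 (406), nuo-3 (308) and cyc-2.1 (289) for H3K27ac. The top decile of all peaks by mean CPM held 14 of 30 and 12 of 28 of the genes. Over all peaks the median log2 ratio ran from -0.15 in the weakest decile to 0.14 in the strongest for H3K18ac, and from -0.65 to 0.12 for H3K27ac.

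Beside genes of like strength, the medians of these genes were still the higher ones. In the top 3 deciles of strength the genes had a median log2 ratio of 0.37 for H3K18ac (20 genes), beside 0.03 for all genes there, and of 0.39 for H3K27ac (17 genes), beside 0.04. All genes called higher in either mark lay in these deciles. There 3 of 20 genes were higher for H3K18ac (15%, against 9.19% of all genes there) and 0 lower (against 9.53%). For H3K27ac 5 of 17 were higher (29.4%, against 11.5%) and 0 lower (against 8.70%). Below these deciles the medians were 0.06 over 10 genes and -0.09 over 11 genes. With each ratio centred on the median of its decile, the genes' medians were 0.19 and 0.26, and the H3K18ac calls at atp-2, cco-2 and nduf-7 and the H3K27ac calls at nuo-5 and nduf-7 fell within 1.5-fold, while cco-2, asg-2 and asb-2 kept theirs for H3K27ac. The centred ratio passed 1.5-fold at ogdh-1 for H3K18ac and at nuo-6 and sucg-1, with weak peaks, for H3K27ac.

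**Figure D5:**
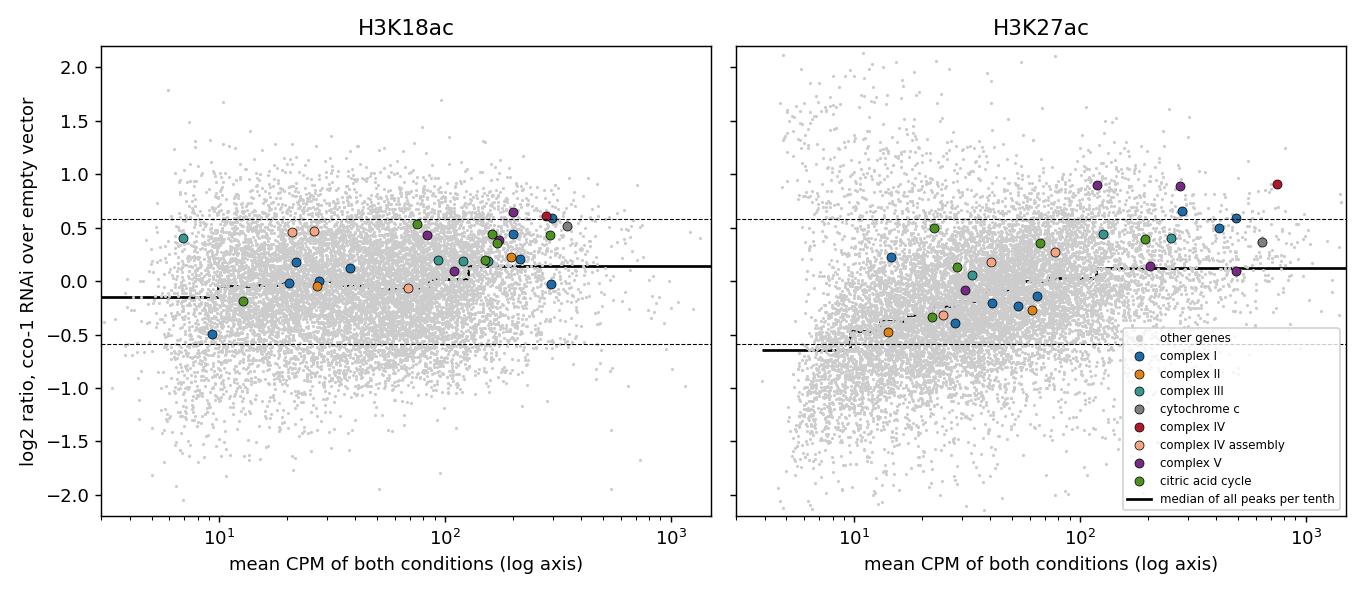
Log2 ratio (y axis, CPM with cco-1 RNAi over CPM with empty vector) against mean CPM of the conditions (log x axis) at the strongest assigned peak of every gene, 1 library pair per mark, with respiratory chain and citric acid cycle genes coloured by complex and cco-1 left out. The stepped line is the median of all peaks in each decile of strength, rising from -0.65 to 0.12 for H3K27ac; most coloured points at the right of each panel lie above it, and a few grey points lie outside the plotted range.

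The place of the peak was compared next. Genes whose peak covered the start had medians of 0.22 for H3K18ac (20 genes) and 0.38 for H3K27ac (18 genes), and genes with the peak elsewhere 0.26 and -0.03 (10 genes each). Peaks over the start were also stronger, with median levels of 147 and 138 CPM with empty vector against 24.8 and 40.7 CPM. With each ratio centred on the median of its decile, the medians were 0.19 and 0.28 at the start and 0.23 and 0.11 elsewhere. The ribosomal protein genes, also highly transcribed, had medians of 0.14 and 0.07 for the mitochondrial ribosome (33 and 39 genes) and 0.29 and 0.06 for the cytosolic ribosome (54 and 50 genes), for H3K18ac and H3K27ac. Centred on their deciles, the ribosomal medians were 0.13 and 0.23 for the mitochondrial and 0.19 and -0.06 for the cytosolic ribosome. The chain and cycle genes had 0.19 and 0.26. So the cytosolic ribosome was level with them for H3K18ac, and the mitochondrial ribosome was near them for H3K27ac. No test of the difference between these groups and the chain was made.

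Other genes that feed the chain had medians near those of the chain. Of 44 genes for pyruvate dehydrogenase, ubiquinone synthesis, other electron entry, assembly, carriers and reactions that feed the cycle, 24 had an H3K18ac peak, with 3 higher (12.5%, against 8.04% of all genes), 1 lower (4.17%, against 13.1%) and a median of 0.28. For H3K27ac 29 had a peak, with 4 higher and 4 lower (13.8% each, against 8.72% and 21.9% of all genes) and a median of 0.20. Past 1.5-fold in both marks were misc-1, the mitochondrial oxoglutarate carrier, which went from 6.99 to 12.4 CPM for H3K18ac, 1.77-fold (1.28 to 2.48), and from 39.6 to 65.9 CPM for H3K27ac, 1.66-fold (1.48 to 1.87), and coq-6, a monooxygenase of ubiquinone synthesis. The latter went the other way, from 82.5 to 51.3 CPM, 0.62-fold (0.55 to 0.70), and from 89.3 to 59.4 CPM, 0.67-fold (0.60 to 0.73).

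Markers of tissues also differed between the conditions, and their calls are to be read against the shares of all genes, 8.04% higher and 13.1% lower for H3K18ac and 8.72% and 21.9% for H3K27ac. With peaks at 7 of 9 listed germline and oocyte genes, H3K27ac was lower at 6, and their summed level went from 768 to 464 CPM. For H3K18ac 1 of 6 was lower, with a sum of 286 and 235 CPM. Sperm markers had ratios below 1 at 4 of 4 genes in each mark, with 0 lower by 1.5-fold for H3K18ac (sum 198 and 154 CPM) and 1 for H3K27ac (158 and 129.6 CPM). Intestine markers were summed at 241 and 387 CPM for H3K27ac (1 of 4 higher) and 272 and 330.0 CPM for H3K18ac (0 of 3 past 1.5-fold). For H3K27ac act-5 alone went from 89.5 to 196 CPM, most of the change in that sum. The H3K27ac ratio was above 1 at 4 of 4 intestine genes. Of the neuron markers 2 of 4 were higher for H3K18ac and 1 of 3 for H3K27ac, with sums of 152 and 217 CPM and of 181 and 254 CPM. Only snb-1, synaptobrevin, was higher in both, at 1.8-fold (1.61 to 2.02) and 1.54-fold (1.44 to 1.64). It alone went from 134 to 206 CPM for H3K27ac, most of the change in that sum. The others had folds of 1.51 and 0.99 at unc-119, 0.83 and 1.05 at unc-13, and 1.03 at rab-3 for H3K18ac. Of the hypodermis markers 3 of 5 were lower for H3K18ac and 2 of 5 for H3K27ac, with sums of 491 and 383 CPM and of 408 and 293 CPM. Body wall muscle markers were lower at 1 of 4 in each mark, with sums of 1364 and 1170.1 CPM for H3K18ac and of 1295 and 986 CPM for H3K27ac. In the H3K27ac sum act-4 alone went from 979 to 711 CPM, most of the change. The ratio was below 1 at 4 of 4 muscle genes in each mark. No marker with a peak was at 0, and the part of tissue composition in the values of the chain genes was not tested.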

How the data were processed

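The deposited tables, 1 per mark, were analysed; the inputs were not used here. Per the file headers, the authors' tables give each peak's position, a nearest gene and whole-number counts for empty vector and cco-1 RNAi, in 1 peak set shared by the conditions. The unit was read as raw counts from the values (whole numbers, unequal totals); a normalized unit that the authors rounded cannot be told apart from them. Per the submitters' processing notes, MACS2 2.1.2, SAMtools 1.4.1, Bowtie2 2.3.5 and FastQC were used with builds WBcel235 and ce11; the counting program, any filters, how libraries were pooled for peak calling and whether inputs were used were not given in the sources used here. How peaks were called decides which genes have a value, and counts are not corrected for input.

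Peaks listed on several lines were counted once and mitochondrial peaks left out (5 and 3, all at 0 counts). No count was 0 in the remaining peaks, so log2 ratios of CPM were taken from the deposited counts with no pseudocount. Intervals are exact (SciPy 1.17.1); those of a difference between marks use the normal approximation for log counts. With 1 library per group no test was run. TMM factors came from edgeR 4.0.16, as scaling only. Intervals of a fold were tested on simulated Poisson counts only. That is the counting error they assume, so the simulation says nothing of the spread between replicates.

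Named genes are those past 1.5-fold in either mark, the gene with the highest empty vector level per complex and mark, cco-1, cco-2, gas-1, isp-1, mev-1, nuo-6, atp-2 and cts-1, and genes whose peaks differ by 1.5-fold or lie on both sides of it. Genes reached only through an overlapping peak, and nduf-11, were named after their values were seen. RefSeq spans (WBcel235) carry no strand here, and cco-1 and cco-2 were matched to them by place. Members and lists were chosen with earlier results of these data known. Alternatives were other scalings, centring on peak strength, a pseudocount of 5 CPM, a filter on weak peaks, other choices of peak, a 2-fold threshold and other memberships. A search for promoter motifs was planned and not run.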

Additional observations from a re-analysis of the deposited data

How the results depend on the processing

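No paired analysis was possible because each group has 1 library and the numbers in the titles go with the antibody. For the same reason no library could be left out. The number of genes lower was 0 in both marks under every alternative run. The number higher for H3K18ac, 3 in the report, was 0 at a 2-fold threshold and 1 after centring on peak strength. For H3K27ac, 5 in the report, it was 0 at 2-fold, 9 with median scaling, 8 with TMM scaling, 3 with the counts of all assigned peaks summed, and 8 by overlapping peak. All medians that follow are by assigned peak, not on the wider basis, so that complex IV is cco-2 alone (0.61 for H3K18ac and 0.91 for H3K27ac in the report's setting). The H3K18ac median of all the genes was 0.35 among peaks of at least median strength. By summed peaks the H3K18ac median of complex I was -4.129e-05, against 0.12, set by nuo-1 at a ratio of 1. Centring on strength gave H3K18ac medians of 0.38 for cytochrome c (0.52 before) and 0.47 for complex IV. For H3K27ac the medians were 0.41 for complex III, 0.37 for cytochrome c, 0.18 for assembly factors, 0.14 for complex V and 0.35 for the cycle. Median scaling gave 0.60 for complex III, 0.56 for cytochrome c, 1.1 for complex IV, 0.37 for its assembly factors, 0.33 for complex V and 0.55 for the cycle. TMM scaling gave 0.58, 0.54, 1.08, 0.31 and 0.53 for complex III, cytochrome c, complex IV, complex V and the cycle. Centring gave 0.29, 0.25 and 0.79 for complex III, cytochrome c and complex IV. Summed peaks gave 0.30, 0.84 and 0.14 for complex III, complex IV and the cycle. On the wider basis centring gave complex IV 0.19 for H3K18ac and 0.42 for H3K27ac, and complex II -0.07 for H3K27ac, against 0.05. Scaling and centring shift values by construction; for the other changes the cause was not tested. Of 162 values of single genes under alternatives, 113 stayed within the counting interval, 49 moved beyond it and none of those past 1.5-fold changed sign. Smaller values changed sign in 4 cases: for H3K18ac nuo-5 (0.44 to -0.03, summed peaks), cox-15 (-0.06 to 0.01, centred) and nduf-2.2 (-0.02 to 0.00, median scaling), and for H3K27ac atp-2 (0.10 to -0.02, centred). Depth limits weak peaks most: at nuo-6, nuo-4, sucg-1 and ucr-2.3 the intervals span a wide range of folds.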
